A study of Mus musculus with 53 samples.

Results

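The response of wild-type mouse liver to partial hepatectomy, the surgical removal of part of the liver, was read from 10 of the 53 RNA-seq libraries of the series. They are the 5 wild-type libraries labelled as resected liver at surgery (day 0, the baseline) and the 5 wild-type libraries labelled as taken 3 days after it (day 3), chosen by label and title alone. The mice were male C57BL/6J, 16 weeks old, and messenger RNA of snap-frozen whole liver was sequenced, with no transgene, drug or diet given for these 10 libraries. A further group of that experiment, 4 day 3 livers labelled Bmp8b knockout, entered the fit only to share the estimate of spread. No library is labelled as sham-operated and the lobe is not named. The comparison therefore holds everything that differed between resected tissue at surgery and the remaining liver 3 days later. Titles number the mice 12 to 16 at both days, and values of 5 libraries are given below in that order. The labels do not say whether the same animal gave both tissues, and p-values measure only the spread between these libraries.

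After partial hepatectomy the remaining liver restores its mass mainly by division of hepatocytes that were at rest, with stellate, endothelial and bile duct cells dividing as well. Cytokines and growth factors such as HGF and EGF receptor ligands prime and drive the hepatocytes from rest through G1 (growth before DNA synthesis) into S phase (DNA synthesis) and mitosis, and members of the TGF-beta and activin family restrain them. BMP8B, the ligand on which the series centres, belongs to that family. The liver meanwhile has to go on secreting plasma proteins, handling drugs and bile acids and supplying glucose.

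Levels are in CPM, counts scaled to library size after TMM normalization, and are compared within a gene only, since CPM is not scaled to gene length. Libraries held 2528341 to 6914274 counts at day 0 and 2566999 to 4076861 at day 3. Of 11026 genes tested with edgeR's quasi-likelihood test, 1915 were called (Benjamini-Hochberg adjusted p under 0.05), which is 17.4% of genes, with 1088 higher (9.87%) and 827 lower (7.5%) at day 3. The counts of called list members below are to be read against these shares. The median log2 fold change of all tested genes was -0.00. A change is given as the log2 fold change of day 3 over day 0 ± its standard error. All day 3 libraries carried the i5 sequencing index D507 and all day 0 libraries D505 or D506, so index and day cannot be told apart.

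Day 3 liver 12 stood apart, and day 3 liver 14 did so to a lesser degree, by transcripts of striated muscle. Of 16 muscle genes listed after their values had been seen, all 16 had counts in both livers. Their summed level was 4595 CPM in liver 12 and 392 CPM in liver 14, against 0.524 to 3.86 CPM in the other 8 libraries. Acta1 (skeletal muscle actin) was at 0 in all 5 day 0 livers and at 966, 0, 76.5, 0.263 and 0 CPM in the day 3 livers. Liver 12 also held 8 of 9 genes of stratified squamous epithelium (keratin-forming surface cells; Krt4 and Krt13 at 71.1 and 79.96 CPM, in all 204 CPM) and 3 of 4 adipocyte genes (43.6 CPM), against at most 0.715 CPM for either list in any other library. Without both livers 1416 genes were called, 841 higher and 575 lower, and results below that rest on them are given both ways. None of the muscle genes was among the tested genes.

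**Figure D1:**
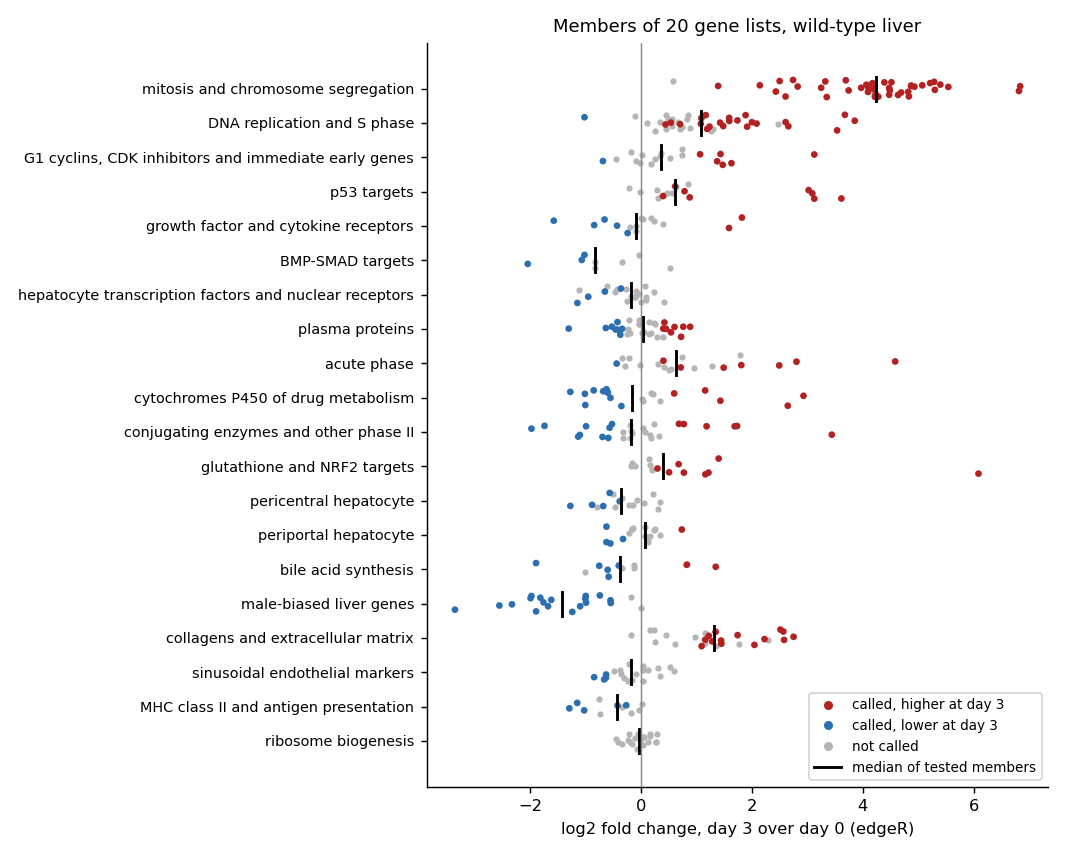
Log2 fold change (x axis, day 3 over day 0) of each tested member of 20 gene lists, 1 point per gene, coloured where called higher or lower, with a black bar at the list's median. Mitosis genes lie almost wholly to the right (42 of 43 called higher, median 4.23), male-biased genes to the left (18 of 20 called lower, median -1.43), and ribosome biogenesis genes around 0 with none called.

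Genes of mitosis, the step in which a cell divides its copied chromosomes, rose almost throughout. Of 43 tested members, 42 rose and none fell, with a median log2 fold change of 4.23 against -0.00 for all genes, of which 9.87% were called higher. Their summed level was 57.9 to 104 CPM in the day 0 livers and 533 to 1224 CPM in the day 3 livers. Every day 3 liver was above every day 0 liver, and day 3 livers 14, 15 and 16 were higher than 12 and 13. The exception in the list was Ccnf, a cyclin of the ubiquitin system, at 0.58 ± 0.21 (adjusted p = 0.0597), which was called without day 0 liver 16 or day 3 liver 12 or 13 (0.66, 0.68 and 0.70), and with DESeq2, with no filter and with only the wild-type groups fitted (0.58, 0.56 and 0.58).

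Cdk1, the kinase that starts mitosis, had 1.79, 0.282, 2.13, 0.524 and 0.392 CPM at day 0 and 19.7, 27.6, 38.3, 45.4 and 35.6 CPM at day 3, a log2 fold change of 4.83 ± 0.43 (adjusted p = 2.91e-07). Top2a, the topoisomerase that untangles copied chromosomes, had 2.83, 1.13, 4.26, 1.31 and 2.35 CPM and 19.7, 30.3, 42.2, 62.5 and 35.6 CPM (3.97 ± 0.39). Neither gene's groups overlapped. Ccna2, the cyclin of S and G2 phase, went from 1.13 to 4.26 CPM to 25.7 to 42 CPM (3.85 ± 0.34). Of 179 genes described here 49 overlap another annotated gene, among them Ccna2 (Exosc9), Lig1 (Zswim9), Nr1d1 (Thra) and Sult1a1 (Sgf29). Strand use in counting is not given, so reads of such partners cannot be told apart. The B-type cyclin Ccnb2, the partner of Cdk1, rose by 4.69 ± 0.34, and Mki67, whose protein coats mitotic chromosomes and marks cycling cells, by 4.82 ± 0.40, or by 5.65 without day 0 liver 15, its highest day 0 liver. Foxm1 and Plk1, the transcription factor and the kinase that drive mitotic genes and mitotic entry, rose by 4.18 ± 0.44 and 4.17 ± 0.54.

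Several mitotic genes, and the helicase gene Pif1, had almost no counts at day 0. Knl1 and Pif1 were not members of the mitosis list. Ccnb1, the other B-type cyclin, had 1 count in the 5 day 0 libraries together and 4.67, 5.04, 12.9, 10.8 and 16.6 CPM at day 3, a ratio of summed levels of 188 with an exact 95% counting interval of 33.1 to 7451. Knl1, a scaffold of the kinetochore that binds spindle fibres, and Pif1, a DNA helicase, had no day 0 counts and were at least 40.3-fold and 34.2-fold higher at day 3, measured against a floor of 3 counts over the day 0 group. The spindle checkpoint kinases Bub1 and Ttk had ratios of 55 and 44.3 (exact 95% intervals 14.8 to 461 and 14.8 to 218), their few day 0 counts all coming from liver 12. Intervals and floors cover counting error only.

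Promoters of these genes are shown because the members moved together, with a pair of elements known to serve mitotic genes in capitals: the CHR (cell cycle homology region, TTTGAA or TTCGAA) and the CCAAT box (CCAAT), on either strand. They are the 250 bases before the RefSeq gene start (build GRCm38.p6, 5′ to 3′ on the gene's strand). Cdk1 is shown from chr10:69352913-69353162 (minus strand), Top2a from chr11:99024190-99024439 (minus) and Ccnb1 from chr13:100786487-100786736 (minus).
Cdk1: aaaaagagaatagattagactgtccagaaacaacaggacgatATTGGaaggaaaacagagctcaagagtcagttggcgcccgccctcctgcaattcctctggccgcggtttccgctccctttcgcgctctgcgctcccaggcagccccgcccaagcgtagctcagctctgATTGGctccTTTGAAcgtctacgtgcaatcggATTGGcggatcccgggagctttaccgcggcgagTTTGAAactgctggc
Top2a: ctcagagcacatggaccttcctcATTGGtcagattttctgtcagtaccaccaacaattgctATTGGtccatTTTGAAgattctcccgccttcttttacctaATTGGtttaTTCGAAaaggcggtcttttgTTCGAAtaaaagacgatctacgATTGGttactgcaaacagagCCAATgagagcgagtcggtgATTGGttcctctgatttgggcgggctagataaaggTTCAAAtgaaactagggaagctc
Ccnb1: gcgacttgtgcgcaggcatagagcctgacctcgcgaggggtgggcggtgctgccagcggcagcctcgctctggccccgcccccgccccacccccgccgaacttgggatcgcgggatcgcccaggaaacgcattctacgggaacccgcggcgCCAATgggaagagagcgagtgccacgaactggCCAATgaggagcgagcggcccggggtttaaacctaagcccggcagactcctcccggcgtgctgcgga
The Cdk1 stretch holds 2 CHR and 3 CCAAT matches, that of Top2a 4 and 6, and that of Ccnb1 0 and 2. Of the 45 genes of the mitosis list, 37 had a promoter in the table. A CCAAT box was found in 27 of these (73.0%), against 35.2% of 20428 promoters of the same length and 36.9% of the 8712 promoters of tested genes, and a CHR in 11 (29.7%), against 16.6% and 12.1%. Short motifs match often by composition alone, and a match is no evidence of binding.

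**Figure D2:**
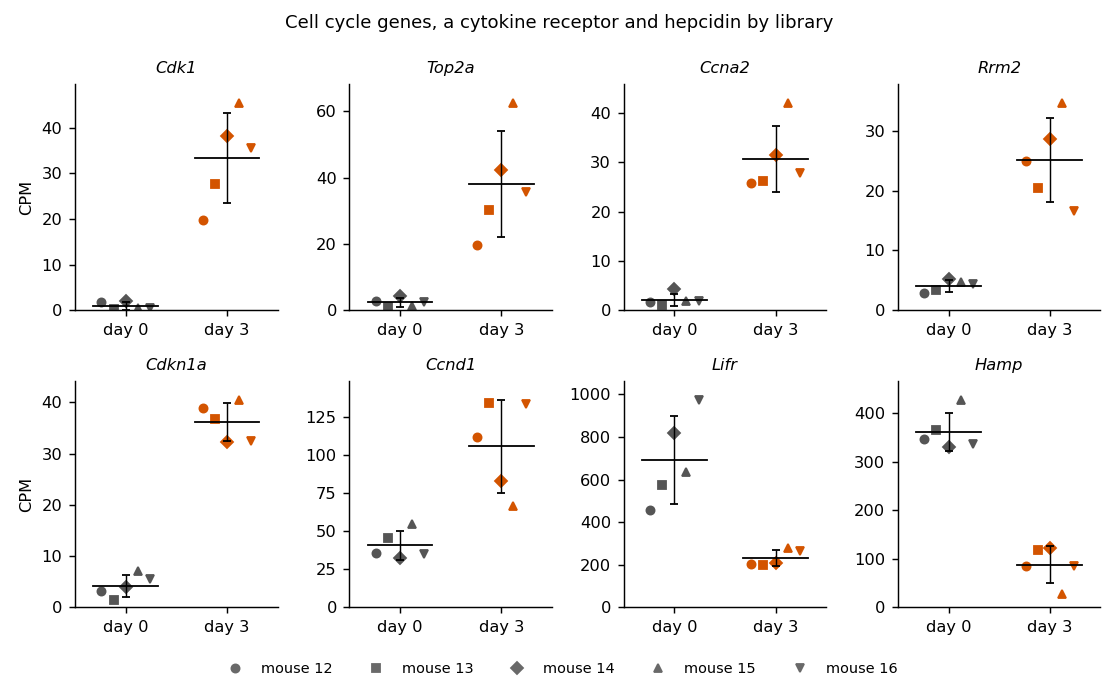
Level in CPM (y axis, linear, from 0) of 8 genes at day 0 and day 3, 1 symbol per library and a shape per mouse number, with the mean as a line and SD as bars (n = 5). In each of these genes the lowest day 3 liver lies above every day 0 liver, or the highest below (Lifr and Hamp).

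Genes of DNA replication, which copies the chromosomes before they are divided, had a lower median. Of 41 tested members 22 rose and 1 fell, with a median of 1.09, against 9.87% of all genes called higher. Rrm2 and Rrm1, the subunits of ribonucleotide reductase that makes DNA building blocks, rose by 2.66 ± 0.28 and 1.59 ± 0.18. Rrm2 had 2.83, 3.39, 5.17, 4.72 and 4.31 CPM at day 0 and 24.9, 20.5, 28.6, 34.7 and 16.6 CPM at day 3, with no overlap. The MCM helicase subunits Mcm2, Mcm5 and Mcm6, which unwind DNA, rose by 1.42 ± 0.21, 1.88 ± 0.31 and 1.48 ± 0.27, and Lig1, which joins newly made strands, by 2.61 ± 0.39. Uhrf1, which keeps DNA methylation through replication, rose by 3.68 ± 0.50, or by 4.75 without day 0 liver 15.

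The sliding clamp gene Pcna did not pass the test (7.46, 10.2, 10.3, 6.81 and 9.4 CPM at day 0, 12.5, 12.8, 16.8, 12.1 and 10.1 CPM at day 3, 0.55 ± 0.24, adjusted p = 0.122). Ccne1, the cyclin of S phase entry, did not pass either (1.30 ± 0.50, adjusted p = 0.0806), except without day 0 liver 15 (1.69). Mcm10, a replication start factor, went the other way, from 71.5 to 199 CPM at day 0 to 44.1 to 82.2 CPM at day 3 (-1.02 ± 0.26, adjusted p = 0.00965). The call for Mcm10 was lost with robust dispersion estimates.

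The Mcm6 promoter is shown for the E2F motif of S phase genes (searched as TTNNCGC with each N a C or a G, on both strands, in capitals), from chr1:128359706-128359955 (minus strand).
Mcm6: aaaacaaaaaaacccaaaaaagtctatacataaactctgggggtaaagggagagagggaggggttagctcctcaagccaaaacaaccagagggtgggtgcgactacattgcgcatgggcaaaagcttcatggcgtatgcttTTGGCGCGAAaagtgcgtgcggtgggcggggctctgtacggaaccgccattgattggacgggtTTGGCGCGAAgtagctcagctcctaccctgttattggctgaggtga
It holds 4 matches, and some of them overlap. Of 35 replication promoters in the RefSeq table, 14 (40.0%) hold a match, against 9.42% of all promoters and 14.4% of those of tested genes.

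Of 19 tested G1 cyclins, CDK inhibitors and immediate early genes 6 rose and 1 fell, against 9.87% and 7.5% of all genes. Ccnd1, cyclin D1, which carries growth factor signals to the cycle, had 35.8, 45.8, 32.5, 55 and 34.9 CPM at day 0 and 112, 135, 83, 66.5 and 133 CPM at day 3 (1.37 ± 0.21, adjusted p = 0.0001). Cdkn1a, the CDK inhibitor p21, had 3.28, 1.41, 3.95, 7.08 and 5.49 CPM and 38.9, 36.8, 32.2, 40.5 and 32.5 CPM (3.12 ± 0.23, adjusted p = 3.15e-08), and its groups lay far apart. The day 3 livers were closely spaced for Cdkn1a, within 32.2 to 40.5 CPM. The CDK inhibitor Cdkn2c and the antiproliferative gene Btg2 rose by 1.63 ± 0.25 and 1.43 ± 0.27. Of the retinoblastoma family, Rbl1 rose by 1.47 ± 0.32 while Rbl2, typical of resting cells, fell by 0.69 ± 0.13 on the log2 scale. Myc did not pass the test (0.53 ± 0.53, adjusted p = 0.559), with 2.35 to 12.1 CPM at day 0 and 6.04 to 13.7 CPM at day 3.

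Targets of p53, the factor that answers DNA damage, rose in 8 of 17 tested members and none fell (6 rose without livers 12 and 14). Among all genes 9.87% were called higher. The p53 targets that rose are given next. Besides Cdkn1a these included Trp53inp1 (0.88 ± 0.17), a stress protein, and Gtse1 (3.09 ± 0.43), a mitotic spindle gene that restrains p53. Eda2r, a death receptor of the TNF family, and Phlda3, which restrains AKT, rose from very low levels, by 3.61 ± 0.67 and 3.02 ± 0.60. Leaving out their highest day 0 liver moved these to 4.62 (without liver 15) and 4.20 (without liver 13). Of 14 S-phase chromatin genes 8 rose, among them the histone chaperone Asf1b (3.40 ± 0.63) and the lamin Lmnb1 (1.45 ± 0.27). That count was 5 without day 0 liver 16, day 3 liver 15 or day 3 liver 16, and 4 without day 3 livers 12 and 14.

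Of 11 tested growth factor and cytokine genes 1 rose and 1 fell, a share close to the 17.4% of all genes called. Pdgfa, a growth factor for stellate cells, rose by 1.32 ± 0.31, and Vegfa, the endothelial growth factor, fell by 0.63 ± 0.10, from 141 to 193 CPM to 99.8 to 131 CPM. Without day 0 liver 15 or day 3 liver 12, with DESeq2 or with robust dispersion estimates, 2 of the list rose. Hgf, the main mitogen of hepatocytes, was at 1.82 to 5.24 CPM and 2.86 to 7.15 CPM (0.61 ± 0.34, adjusted p = 0.25). Il6 had counts in 1 library of 10 and Tnf in 4, at 0.608 CPM or less, so no change in them was detectable at this depth.

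Receptors moved in both directions. Lifr, the receptor of leukemia inhibitory factor, had 456, 576, 819, 635 and 973 CPM at day 0 and 204, 199, 209, 281 and 266 CPM at day 3 (-1.58 ± 0.19, adjusted p = 7.26e-06). Osmr, which pairs with the same signalling subunit to receive oncostatin M, had 2.54, 5.37, 1.82, 3.93 and 3.13 CPM and 10.6, 6.82, 9.65, 14.4 and 8.51 CPM (1.59 ± 0.33). The groups did not overlap for either receptor, and they moved in opposite directions. Tnfrsf12a, the receptor of the mitogen TWEAK, rose by 1.82 ± 0.34. The growth hormone receptor Ghr fell by 0.66 ± 0.10 and the endothelial receptor Kdr by 0.85 ± 0.14. The HGF receptor Met was at 67.8 to 82.8 CPM and 58.1 to 84.3 CPM (-0.00 ± 0.12). In all 2 of 15 receptor genes rose and 5 fell, against 9.87% and 7.5% of all genes. With any single library left out 3 or 4 fell, 3 without day 0 liver 12 or 16 or day 3 liver 13 or 16. Without day 3 livers 12 and 14, 4 fell.

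Of the inhibitors and binding proteins, Igfbp1, an IGF-binding protein secreted by hepatocytes, had 37.3, 10.7, 5.47, 33.5 and 46.2 CPM at day 0 and 129, 39.8, 162, 107 and 144 CPM at day 3 (2.12 ± 0.48, adjusted p = 0.00372), with day 3 liver 13 inside the day 0 range. Igfals, which holds IGF1 in the circulation, fell by 0.53 ± 0.12 and the growth hormone feedback inhibitor Socs2 by 1.52 ± 0.33. Igf1 itself did not pass the test (-0.19 ± 0.10, adjusted p = 0.216).

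In the family of BMP8B, 2 of 12 tested ligands and 3 of 17 receptors and inhibitors were called, shares close to the 17.4% of all genes. Bmp8b had 0.746, 0, 0.304, 0 and 0 CPM at day 0 and 0.519, 0.89, 0.358, 1.31 and 1.16 CPM at day 3, that is 6 and 14 counts in all, and was too low to be tested. Of the ligands, Gdf2 (BMP9, made in the liver) rose by 1.18 ± 0.24 and Inhbe, a liver activin subunit, fell by 1.01 ± 0.25. Without livers 12 and 14 Inhbe lost its call (-0.83, adjusted p = 0.074). Inhba, another activin subunit, did not pass (0.69 ± 0.24, adjusted p = 0.0572), except without these livers (0.86), without day 0 liver 13 or day 3 liver 14, with DESeq2, with no filter and with limma voom. The activin antagonist Fst and the related gene Fstl1 rose by 2.30 ± 0.45 and 2.06 ± 0.33, with no overlap between the groups. Fst had 2.98, 1.98, 3.04, 4.72 and 0 CPM at day 0 and 10.1, 22.6, 7.87, 9.98 and 16.6 CPM at day 3, and day 3 liver 13 was the highest.

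Of 8 tested genes that BMP signals are known to induce, 3 fell and none rose, against 7.5% of all genes called lower. Without livers 12 and 14, 2 of 10 tested fell. With single libraries left out 2 to 4 fell. Hamp, which encodes the iron hormone hepcidin, had 347, 365, 331, 428 and 337 CPM at day 0 and 85.9, 118, 123, 27.3 and 86.2 CPM at day 3 (-2.05 ± 0.43, adjusted p = 0.00205). Day 3 liver 15 was the lowest and all day 3 livers lay under all day 0 livers. Id2, an inhibitor of differentiation factors, fell by 1.02 ± 0.18, with day 3 liver 13 just inside the day 0 range. Tfrc, the transferrin receptor for iron uptake, rose by 1.08 ± 0.24, and Alas2, a heme synthesis enzyme of red cell precursors, fell by 1.01 ± 0.14.

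Of 21 tested transcription factors of hepatocyte identity and nuclear receptors none rose and 4 fell, against 7.5% of all genes called lower. Without day 0 liver 12, 7 fell and 1 rose, and with no filter 8 fell. Cebpa, which restrains hepatocyte division, had 272, 307, 378, 379.5 and 259 CPM at day 0 and 190.3, 257, 215, 184 and 168 CPM at day 3 (-0.65 ± 0.12, adjusted p = 0.00084). Nr0b2, the bile acid repressor SHP, fell by 1.15 ± 0.26 and Rxra, the shared partner of nuclear receptors, by 0.36 ± 0.09. Hnf4a, the central hepatocyte factor, was at 583 to 889.7 CPM and 566 to 837 CPM (-0.04 ± 0.12).

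Alb, the gene of serum albumin, rose by 0.76 ± 0.11 (adjusted p = 7.44e-05). It took 5.28% to 7.30% of all counts at day 0 and 9.15% to 11.4% at day 3. Among 32 tested plasma protein genes 8 rose and 8 fell, or 5 rose without day 3 liver 15, against 17.4% of all genes called. Proc, the anticoagulant protein C, fell by 0.64 ± 0.10, Rbp4, the retinol carrier, by 0.46 ± 0.10, and Mug1, a protease inhibitor, by 1.31 ± 0.14. Genes of the fetal liver rose in 3 of 7 tested members, against 9.87% of all genes called higher. Scd2, a fatty acid desaturase of fetal liver, had 6.11, 3.95, 7.91, 1.57 and 7.84 CPM and 54, 21.1, 16.4, 27.1 and 64.2 CPM (2.75 ± 0.42), and the imprinted gene Mest rose by 1.80 ± 0.38. Afp, alpha-fetoprotein, was under 5 CPM in every library and did not pass (1.11 ± 0.45, adjusted p = 0.1), except without livers 12 and 14 (1.49, adjusted p = 0.0452). The imprinted RNA H19 was listed at 157, 0.593, 13.6, 1.58 and 0.387 CPM in the day 3 livers, so its high values came from livers 12 and 14, the livers with muscle transcripts.

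**Figure D3:**
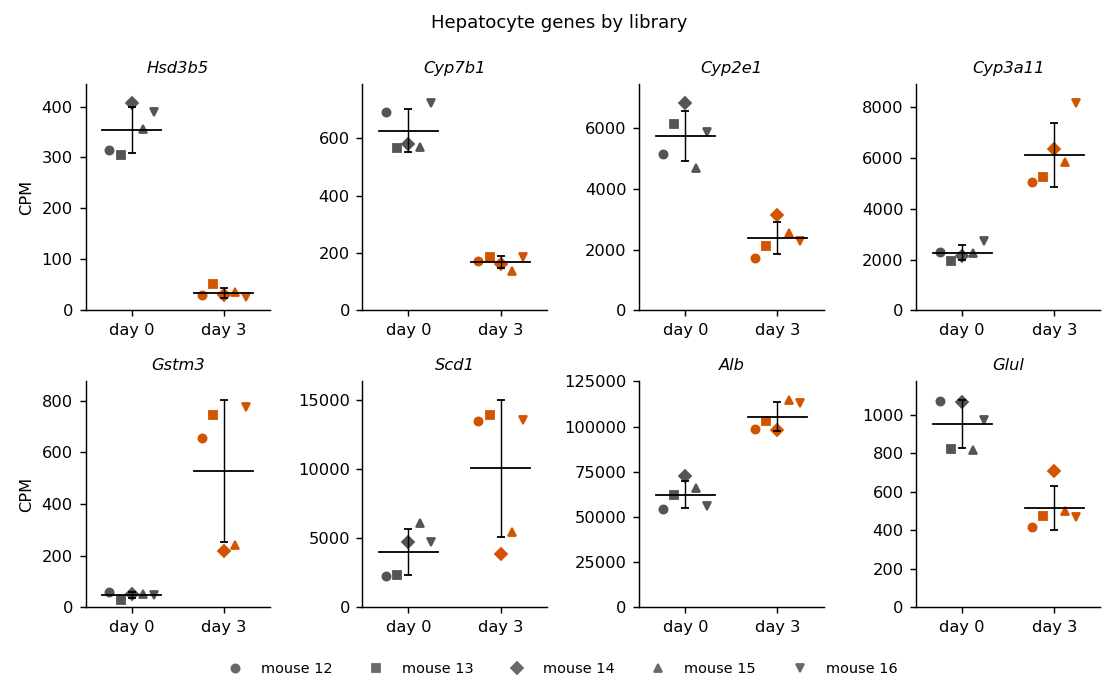
Level in CPM (y axis, linear, from 0) of 8 hepatocyte genes at day 0 and day 3, drawn as in the plot of cell cycle genes, with mean and SD (n = 5). Hsd3b5, Cyp7b1, Cyp2e1 and Glul separate downward and Cyp3a11 and Alb upward in all 5 livers, while day 3 livers 14 and 15 lie apart from 12, 13 and 16 for Gstm3 and Scd1.

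Genes with higher expression in male than in female mouse liver fell almost as a block. Of 20 tested members 18 fell, against 7.5% of all genes, and none rose, with a median of -1.43, and 16 fell without livers 12 and 14. Their summed level was 18549.9 to 21845 CPM at day 0 and 7014 to 9595 CPM at day 3. Hsd3b5, a steroid-metabolising enzyme on chromosome 3 from 98618634 to 98630252 (GRCm38), had 314, 306, 407, 356 and 389.9 CPM at day 0 and 30.4, 50.7, 29.3, 34.9 and 26.3 CPM at day 3. Its log2 fold change of -3.36 ± 0.20 (adjusted p = 4.3e-09) was the largest fall among genes named by the rule for size. Cyp7b1 (oxysterol hydroxylase), Slco1a1 (organic anion uptake) and Elovl3 (fatty acid elongation) fell by 1.90 ± 0.23, 1.82 ± 0.17 and 1.76 ± 0.23. The urinary proteins Mup1, Mup11, Mup12, Mup16, Mup17 and Mup18 were also among the 12 largest falls, but these genes are near-identical copies and their separate counts are uncertain. Of 19 listed genes higher in females 14 had too few counts to be tested. Of the 5 tested 2 rose, Atp6v0d2 and Nipal1, by 2.94 ± 0.52 and 3.52 ± 0.48. Without day 0 liver 16 the count was 4. A gene as low at day 0 as Atp6v0d2 (0.608 to 1.96 CPM) could enter the test only through higher day 3 levels. The count is therefore no measure of a rise of the list. Of 9 tested growth hormone signalling genes 3 fell (Ghr, Socs2 and Igfals, as given above) and none rose, with a median of -0.19. Sex bias in mouse liver is known to depend on the pattern of growth hormone release, and a part of that pathway in these falls was not tested.

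Drug-metabolising cytochrome P450 genes split, with 5 of 20 tested members higher and 10 lower, against 17.4% of all genes called. Cyp3a11, the main inducible P450 of mouse liver, had 2299, 1944, 2148, 2258 and 2718 CPM at day 0 and 5040.2, 5233, 6350.2, 5842 and 8169.6 CPM at day 3 (1.43 ± 0.15, adjusted p = 1.66e-06). Cyp2e1, the ethanol-metabolising P450, had 5169, 6147, 6845, 4708 and 5899.9 CPM and 1724, 2136, 3152, 2565 and 2294 CPM (-1.28 ± 0.15, adjusted p = 4.66e-06). The groups of both genes were apart and on opposite sides. Cyp2c55 rose by 2.65 ± 0.24, and Cyp1a2, Cyp2d10, Cyp2f2 and Cyp2j5 fell by 0.68 ± 0.11, 1.01 ± 0.09, 0.63 ± 0.13 and 0.60 ± 0.10.

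Conjugating enzymes and related genes were as mixed, with 6 of 27 higher and 9 lower, against 17.4% of all genes called. Gstm3, a glutathione transferase, had 59.8, 29.1, 52.6, 51.1 and 49 CPM at day 0 and 656, 745, 219, 241 and 777 CPM at day 3 (3.44 ± 0.33, adjusted p = 7.24e-07), all day 3 livers being higher, 14 and 15 least so. Gsta1, a transferase with close copies whose counts may be shared, had 2 counts at day 0 and 16.6, 13.3, 2.5, 2.36 and 11.6 CPM at day 3, a ratio of 93.7 (exact 95% interval 25.5 to 781), with livers 14 and 15 again lowest. The sulfotransferase Sult1a1 rose by 1.18 ± 0.11, and the carboxylesterases Ces3a and Ces3b fell by 1.14 ± 0.11 and 1.74 ± 0.18. Of 14 genes of glutathione and the oxidant sensor NRF2, 8 rose, against 9.87% of all genes, and none fell. Hmox1, which degrades heme, was among the 8 (1.16 ± 0.16). The count of rises was 5 without day 0 liver 16 or day 3 liver 16 and 4 without day 3 liver 13.

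Hepatocytes near the central vein and near the portal vein run different programs. Of 16 pericentral genes none rose and 5 fell, against 7.5% of all genes called lower. Glul, glutamine synthetase of the cells around the central vein, had 1075, 826, 1069, 817 and 972 CPM at day 0 and 419, 475, 710.5, 501 and 472 CPM at day 3 (-0.89 ± 0.13). Axin2, a direct Wnt target, did not pass (-0.35 ± 0.35, adjusted p = 0.552). Of 17 periportal genes 1 rose and 4 fell, against 17.4% of all genes called. Hsd17b13 of the lipid droplet rose (0.73 ± 0.11). Among the falls were Hal, which breaks down histidine (-0.55 ± 0.10), and Pigr, which carries IgA into bile (-0.63 ± 0.09). The urea cycle genes Cps1 and Ass1 did not pass (0.23 ± 0.16 and 0.26 ± 0.11, adjusted p = 0.372 and 0.122).

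Amino acid breakdown genes fell in 10 of 30 tested members and rose in 2, against 7.5% and 9.87% of all genes. Tdo2 (tryptophan) and Prodh (proline) fell by 0.83 ± 0.17 and 0.80 ± 0.11. Cth, which makes cysteine, rose by 0.80 ± 0.15, and the neutral amino acid transporter Slc1a4 had 12.4, 3.67, 6.69, 6.29 and 10.6 CPM at day 0 and 29.3, 35.6, 33.6, 37 and 30.9 CPM at day 3 (2.03 ± 0.23). In glucose metabolism, Irs2, an insulin receptor substrate, rose by 1.37 ± 0.32, and the glycogen-targeting subunits Ppp1r3b and Ppp1r3c fell by 1.02 ± 0.21 and 0.87 ± 0.21. The gluconeogenic gene G6pc did not pass (0.34 ± 0.30, adjusted p = 0.494). Pkm, the pyruvate kinase of dividing cells and of muscle, rose by 1.66 ± 0.34, with the highest levels in livers 12 and 14 (49.6, 10.1, 25, 13.4 and 14.3 CPM), and by 0.81 without them (adjusted p = 0.0253).

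Genes of lipid uptake were among those that rose. Lpl, lipoprotein lipase, had 22.1, 26, 36.5, 22.5 and 39.2 CPM at day 0 and 193, 76.5, 79.7, 100.1 and 95.5 CPM at day 3 (1.93 ± 0.28), and the fatty acid transporter Cd36 rose by 1.46 ± 0.18. Lpl was highest in liver 12 and rose by 1.66 without livers 12 and 14. In all 4 of 16 genes of lipid droplets and uptake rose and 1 fell, against 9.87% and 7.5% of all genes. The fall was that of Dgat2, of triglyceride synthesis (-0.65 ± 0.10). Fabp1, the hepatocyte fatty acid carrier, fell by 0.62 ± 0.13, and Acadm, of fatty acid oxidation, rose by 0.48 ± 0.09. Fatty acid synthesis genes summed to 6505 to 11042 CPM at day 0 and 7552 to 19754 CPM at day 3, with livers 14 and 15 inside the day 0 range. Scd1, the main desaturase, had 2289, 2371, 4723, 6109 and 4757 CPM and 13497, 13909, 3904, 5444 and 13569 CPM (1.31 ± 0.32, adjusted p = 0.00611). It made up most of the summed level in each day 3 liver, while the median log2 fold change of the fatty acid synthesis genes was 0.15. Of 18 such genes 3 rose and 2 fell, against 17.4% of all genes called. The count of rises was 5 without day 3 liver 14 or without day 3 liver 15. Fasn did not pass (0.29 ± 0.30, adjusted p = 0.564).

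Of the later enzymes of cholesterol synthesis, Hsd17b7 and Tm7sf2 fell by 0.83 ± 0.17 and 0.66 ± 0.09. Of 12 bile acid synthesis genes 2 rose and 5 fell, against 9.87% and 7.5% of all genes. The counts were the same without livers 12 and 14. Cyp27a1 and Cyp7b1, of the alternative pathway, fell by 0.76 ± 0.10 and 1.90 ± 0.23, and Akr1d1 and Cyp39a1 rose by 0.82 ± 0.12 and 1.35 ± 0.24. Cyp7a1, the rate-limiting enzyme of the classical pathway, did not pass (0.83 ± 0.31, adjusted p = 0.0706), though it did with limma voom, with no filter and when only the wild-type groups were fitted (0.85, 0.81 and 0.83). The bile acid uptake transporters Slc10a1 and Slco1b2 fell by 0.60 ± 0.13 and 0.57 ± 0.12, as did the sterol exporter Abcg8 (-0.97 ± 0.13). The bile salt export pump Abcb11 was at 638 to 910.2 CPM and 744 to 797 CPM (-0.04 ± 0.11).

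Genes of the extracellular matrix rose in number, and part of this count rested on livers 12 and 14. In bulk RNA, fewer cells of a type and less RNA per cell cannot be told apart, which holds for each list of cell markers. Of 26 tested collagen and matrix genes 14 rose and none fell (median 1.31), or 8 of 25 without those livers (median 0.85). Among all genes 9.87% were called higher. Col1a1, of scar collagen, had 7.01, 16.1, 12.8, 9.7 and 5.49 CPM at day 0 and 107, 29.1, 146, 40.7 and 19.3 CPM at day 3 (2.75 ± 0.56), and rose by 1.57 without them (adjusted p = 0.0438). Col4a1, of basement membrane, had 52.3, 53.9, 43.8, 42.5 and 41.5 CPM and 158, 121, 121, 100.3 and 139 CPM (1.44 ± 0.14, and 1.35 without them), with no overlap. Sparc, which binds collagen, rose by 1.45 ± 0.19 and by 1.22 without them.

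Of 8 myofibroblast genes 6 rose, or 4 without livers 12 and 14, against 9.87% of all genes called higher. Tagln, of contractile filaments, rose by 1.65 ± 0.30 with these livers and by 1.47 without. Acta2, smooth muscle actin, lost its call without them (2.18 ± 0.65, then 1.39, adjusted p = 0.234), and also without day 0 liver 14 or 15 or day 3 liver 12 alone (adjusted p = 0.0582, 0.062 and 0.109), or with robust dispersion estimates or limma voom. Des and Tpm2, muscle filament genes that stellate cells and myofibroblasts also express, had 215, 4.75, 34.7, 7.62 and 4.64 CPM and 236, 7.12, 25.4, 6.83 and 8.89 CPM at day 3. Without livers 12 and 14 Des lost its call (4.57 ± 0.94, then 1.31, adjusted p = 0.0592), and Tpm2 went from 4.29 ± 0.88 to 1.35 (adjusted p = 0.0115). Without liver 12 alone the values were 2.47 and 2.01, and with limma voom neither gene was called (3.01 and 2.75). Of 13 resident stellate markers 4 rose and 1 fell, or 2 and 1 without livers 12 and 14, against 17.4% of all genes called. The part of the muscle transcripts in these changes was not tested.

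Mesothelial genes, of the layer that covers the liver, were close to absent at day 0. Of 5 listed, 3 had too few counts to be tested. The 2 tested members could pass the count filter only through day 3 libraries. That both rose is therefore no result about the list, and with only the wild-type groups fitted the count was 1. Msln had 2 day 0 counts and 15.1, 4.75, 10.7, 4.73 and 3.48 CPM at day 3, a ratio of 79.2 (exact 95% interval 21.5 to 661). Upk3b had none and 8.05, 3.26, 8.22, 2.36 and 1.16 CPM at day 3, at least 30.7-fold higher. Both were highest in livers 12 and 14 and kept their calls without them (adjusted p = 0.00716 and 0.00745). Slpi, a secreted protease inhibitor of epithelia, had 0 to 0.392 CPM at day 0 and 42.8, 9.79, 27.9, 11.3 and 20.5 CPM at day 3 (6.58 ± 0.74, and 5.87 without livers 12 and 14).

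**Figure D4:**
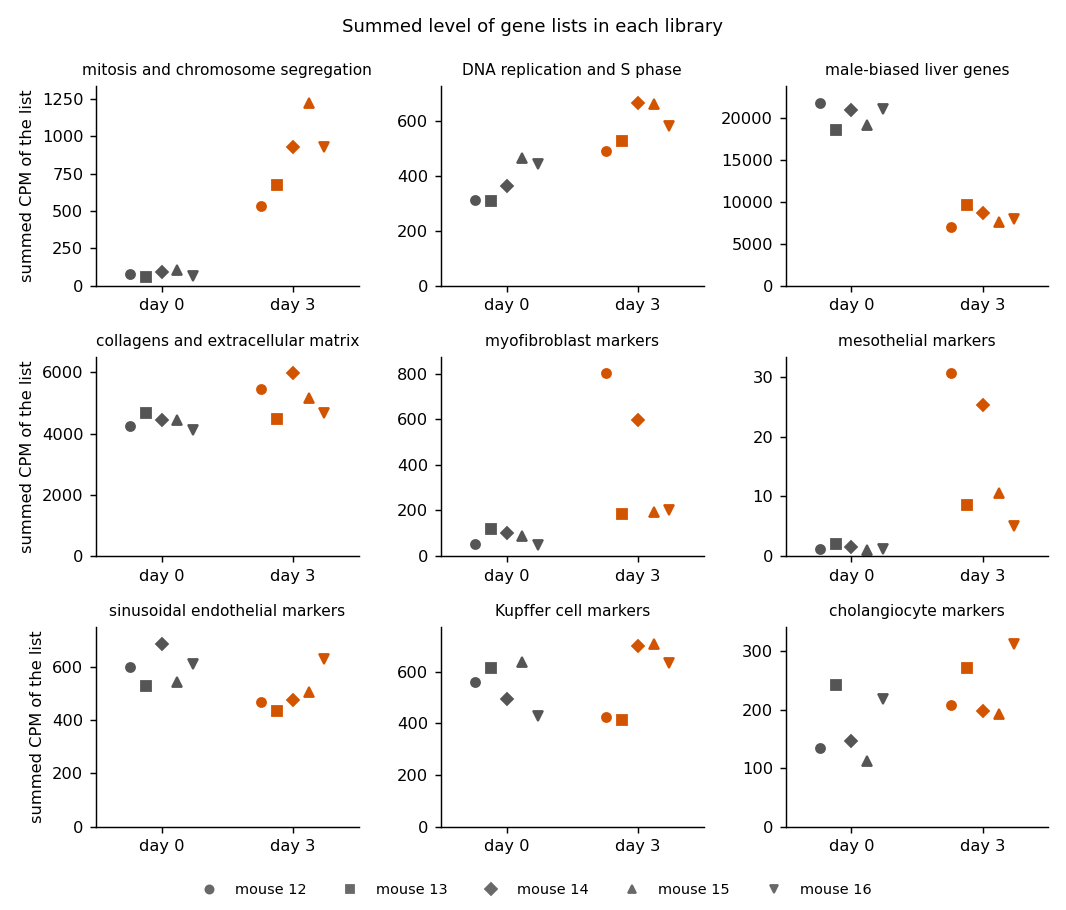
Summed level in CPM (y axis, linear, from 0) of 9 gene lists in each library, 1 symbol per mouse number. Mitosis and male-biased genes separate the days fully, myofibroblast and mesothelial sums are highest in day 3 livers 12 and 14, and the sums of sinusoidal endothelial, Kupffer cell and cholangiocyte markers overlap between the days.

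Markers of other liver cells were mixed. Of 20 sinusoidal endothelial markers none rose and 4 fell (3 without livers 12 and 14), against 7.5% of all genes called lower, among them Kdr and the receptors Fcgr2b (-0.67 ± 0.15) and Clec4g (-0.63 ± 0.16). The scavenger receptors Stab1 and Stab2 of the same cells did not pass (0.04 ± 0.12 and -0.32 ± 0.18). Of 13 markers of Kupffer cells, the resident macrophages, 1 rose and 1 fell, a share close to the 17.4% of all genes called. Marco, a scavenger receptor, had 8.05, 11.3, 6.39, 11.5 and 4.31 CPM at day 0 and 42.6, 35.6, 88.3, 111 and 78.5 CPM at day 3 (3.06 ± 0.43, adjusted p = 4.32e-05), while Clec4f and Vsig4, markers of the same cells, did not pass (-0.27 ± 0.21 and -0.13 ± 0.23). The iron exporter Slc40a1 fell by 0.50 ± 0.14, and was not called without day 0 liver 15 (adjusted p = 0.0529) or without livers 12 and 14 (adjusted p = 0.118). Of 18 listed markers of monocytes and recruited macrophages 10 had too few counts to be tested. Among these was Ccr2, at 0.262 to 3.11 CPM at day 0 and 0.593 to 2.86 CPM at day 3. Of the 8 tested 4 rose, against 9.87% of all genes, and none fell. The 4 were Lpl, the tetraspanin Cd9 (1.29 ± 0.19), osteopontin Spp1 (0.63 ± 0.21), which bile duct cells also express, and the galectin Lgals3 (1.20 ± 0.41). Lpl was highest in day 3 liver 12, which also held muscle and adipocyte genes. The count of rises was 2 without day 0 liver 14 or 15 or with only the wild-type groups fitted. The call of Spp1 was also lost without day 0 liver 12 or day 3 liver 13 or 16 and with DESeq2, and that of Lgals3 without day 0 liver 16 or day 3 liver 12, 14 or 15, without livers 12 and 14 (adjusted p = 0.316) and with limma voom. The chemokine Ccl9 had 50.8 to 66.2 CPM and 133 to 167 CPM (1.36 ± 0.14). Neutrophil genes were near the detection limit, with S100a9 at 0.282 to 0.786 CPM and 0.773 to 5.36 CPM (2.36 ± 0.60). Of the bile duct markers Krt19 did not pass (1.87 ± 0.69, adjusted p = 0.0673), except with DESeq2 (1.91) and without day 0 liver 14 or day 3 liver 13 (2.30 and 2.14). Cela1, an elastase best known from pancreas, was steady within each day, at 37.3, 34.2, 35.3, 35.6 and 34.1 CPM and 11.4, 16.6, 16.4, 15.5 and 14.3 CPM (-1.25 ± 0.17).

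Antigen presentation genes fell in 5 of 11 tested members, against 7.5% of all genes called lower. Cd74, the invariant chain of MHC class II, had 58.6, 63.8, 48, 42.2 and 56.4 CPM at day 0 and 22.9, 18.1, 28.2, 23.6 and 16.6 CPM at day 3 (-1.29 ± 0.18, adjusted p = 4.86e-05). H2-Ab1 and H2-K1, of classes II and I, fell by 1.03 ± 0.26 and 0.43 ± 0.09, with close copies in their families. Of 18 interferon-stimulated genes 4 fell and 1 rose, or 2 and none without livers 12 and 14, against 17.4% of all genes called. Irf7, a regulator of interferon, had 41.5 to 73.6 CPM at day 0 and 28.8 to 32 CPM at day 3 (-0.86 ± 0.15).

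Genes of the cytoskeleton and its partners rose in 11 of 18 tested members, against 9.87% of all genes, and fell in 1 (median 1.03). Without livers 12 and 14, 11 were higher and none lower. The single fall was also lost with RLE scaling, with no filter, with limma voom and with only the wild-type groups fitted. Leaving out day 0 liver 13, 14, 15 or 16, or day 3 liver 12, 13, 14 or 16, lost it too. Tubb6, a beta tubulin, had 5.52, 7.34, 10.03, 8.91 and 1.96 CPM at day 0 and 25.2, 46.3, 49.7, 83.5 and 50.6 CPM at day 3 (2.90 ± 0.37). The annexins Anxa2 and Anxa5, which bind membranes, rose by 1.90 ± 0.21 and 1.16 ± 0.13, the galectin Lgals1 by 2.05 ± 0.18 and the keratin Krt8 of hepatocyte filaments by 0.97 ± 0.14. Protein folding and stress genes fell in 1 of 22 and rose in 8, against 7.5% and 9.87% of all genes. The rises included the chaperone Hspa5 (0.65 ± 0.12) and the stress factor Atf3 (2.42 ± 0.52). When only the wild-type groups were fitted 5 rose. By contrast, none of 20 ribosome biogenesis genes, 26 cytosolic ribosomal protein genes and 7 mitochondrially encoded genes was called. At an unadjusted p under 0.05 there were 1, 3 and 1 such genes in these lists, and DESeq2 called 0, 0 and 0. Of 16 clock and clock output genes 2 rose and 5 fell, against 9.87% and 7.5% of all genes. With single libraries left out 1 to 6 fell, and without livers 12 and 14, 1 fell. The clock repressor Nr1d1 fell by 0.95 ± 0.20, and Clock and its relative Npas2 rose by 0.54 ± 0.12 and 1.40 ± 0.36. Arntl did not pass (0.57 ± 0.26, adjusted p = 0.148), but was called without day 0 liver 12 (0.99, adjusted p = 0.00367). The hour of sampling is not in the labels.

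The 5 livers of each day, at day 0 as well as at day 3, differed among themselves in acute phase and metallothionein genes. Mt2, a metallothionein that binds zinc and copper, had 6.26, 13, 1.52, 6.03 and 1.57 CPM at day 0 and 69.8, 18.7, 309, 300.0 and 17.4 CPM at day 3 (4.58 ± 0.73, adjusted p = 0.000163). Livers 14 and 15 were highest, and every day 3 liver was above every day 0 liver. Its relative Mt1 had 108, 29.9, 2.74, 10.2 and 7.84 CPM and 164, 26.1, 521, 465 and 30.6 CPM (2.80 ± 0.76), and 4.22 without day 0 liver 12. The iron-binding acute phase protein gene Lcn2 had 460.5, 112, 12.2, 91.7 and 27.8 CPM and 901, 212, 1464, 1239 and 229 CPM (2.49 ± 0.67, or 3.71 without day 0 liver 12). Without livers 12 and 14 neither Mt1 nor Lcn2 was called (adjusted p = 0.0667 and 0.0859), nor was either called with robust dispersion estimates, and with limma voom the calls of Mt1 and Mt2 were lost.

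The Mt2 promoter is shown for the core of the metal response element (TGCACNC or TGCGCNC, both strands, in capitals), from chr8:94172368-94172617 (plus strand), the same element being present in 23.2% of all promoters and 30.5% of those of tested genes.
Mt2: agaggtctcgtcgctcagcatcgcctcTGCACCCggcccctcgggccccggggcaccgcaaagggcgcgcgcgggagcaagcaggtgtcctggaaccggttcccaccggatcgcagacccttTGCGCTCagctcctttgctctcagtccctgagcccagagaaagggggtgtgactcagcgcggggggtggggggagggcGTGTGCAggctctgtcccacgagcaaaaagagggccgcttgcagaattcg
It holds 3 matches.

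Saa1, serum amyloid A, ranged over 89.4 to 3678 CPM at day 0 and 357 to 7146 CPM at day 3 and did not pass (1.28 ± 0.67, adjusted p = 0.211). Of 20 acute phase genes 7 rose and 1 fell, against 9.87% and 7.5% of all genes. Without livers 12 and 14, and also with robust dispersion estimates, 3 rose. The single fall was lost without day 0 liver 12 or 13 or without day 3 liver 12, 13 or 16. Orm2, a plasma carrier, had 576, 249, 959, 906 and 263 CPM at day 3 (1.81 ± 0.51), the same livers 14 and 15 being highest, and was not called without livers 12 and 14 (adjusted p = 0.0937) or with robust dispersion estimates. Apcs, serum amyloid P, rose by 1.49 ± 0.29 and by 1.17 without them (adjusted p = 0.0117). Day 3 livers 14 and 15 thus had the highest Mt1, Mt2, Saa1, Orm2 and Lcn2 and the lowest Gstm3, Gsta1 and Scd1 of the 5.

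**Figure D5:**
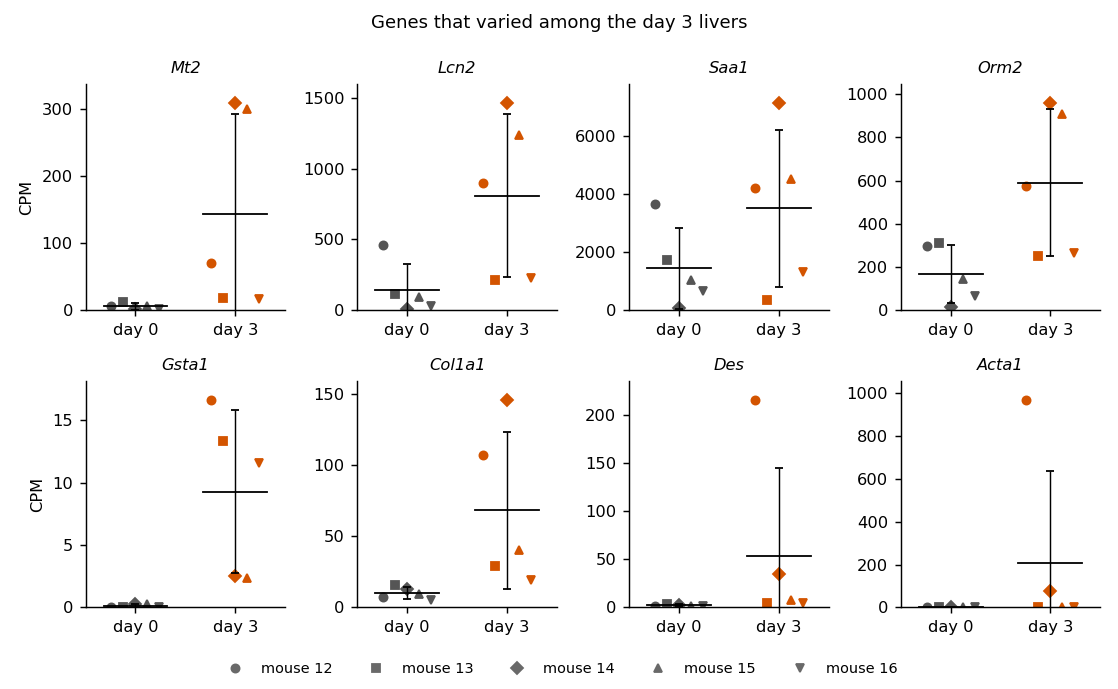
Level in CPM (y axis, linear, from 0) of 8 genes that differed among the day 3 livers, drawn as in the plot of cell cycle genes, with mean and SD (n = 5), bars ending at the axis where they would pass below 0. Day 3 livers 14 and 15 are highest for Mt2, Lcn2, Saa1 and Orm2 and lowest for Gsta1, and Acta1 and Des stand out in liver 12. Lcn2 and Saa1 also ranged widely among the day 0 livers.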

How the data were processed

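Total RNA of snap-frozen liver with an RNA integrity number of at least 8 was sequenced from an Illumina mRNA library kit, per the labels' protocols. Per-gene raw read counts with Ensembl identifiers were deposited, made with TopHat2 2.0.11 on GRCm38 and HTSeq (version and strand setting not given in the sources used here), per the submitters' processing notes. The table of this experiment holds 53379 identifiers, of which 53274 were named through GENCODE vM21, and all of its columns were used.

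Its 14 libraries were fitted together by group in edgeR 4.0.16 (R 4.3.3) with TMM normalization, filterByExpr and the two-sided quasi-likelihood F-test. Standard errors are the log2 fold change divided by the square root of F. All pairs of libraries within a group differed by more than counting error (chi-square per degree of freedom 5.27 or more). Libraries held 2528341 to 6914274 counts, and 3 counts in the shallowest day 0 library equal 1.17 CPM. The test was tried on simulated counts with known changes.

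The comparison, its 61 gene lists and the members were chosen with earlier results of these data known. Named are Bmp8b, genes marked in the lists, up to 4 called members per list with the smallest p, and the 12 largest rises and falls that were called, without overlap, at an average of 5 CPM or more. Fewer are named than this gives, since some genes are not reported here, and the muscle, squamous and adipocyte genes and those under other observations were chosen after their values were seen. Alternatives were DESeq2 1.42.0, RLE and upper-quartile scaling, other filters, a fold threshold, robust dispersion, limma 3.58.1 voom, the wild-type groups alone, mouse number as a block and leaving out libraries. Promoters came from RefSeq (GRCm38.p6). Tables were handled with pandas 2.3.3 in Python 3.11.15 and figures drawn with matplotlib 3.10.9.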

Additional observations from a re-analysis of the deposited data

Results flagged for a closer look

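In a set of 5 livers, a sample was marked where its gap to the nearest other liver was over 0.710 of the whole range of the 5 (Dixon's test). This was so for 35 of 364 sets (9.62%) of the genes named here. For normally distributed values chance marks about 1 in 20, but levels in CPM need not be so distributed. A set with counts in 1 liver alone is always marked, and some genes were chosen after their values were seen. The share is therefore no measure of an excess over chance.

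Day 3 liver 12 was marked high for Acta1 (966 CPM), Tpm2 (236 CPM), Des (215 CPM), Lpl (193 CPM), H19 (157 CPM), Slc25a4 (142 CPM), Pygm (131 CPM) and Hsd17b7 (73.0 CPM), and low for Met (58.1 CPM). Other day 3 livers were marked high for Glul (710 CPM) and Uhrf1 (10.7 CPM) in liver 14, Id2 (124 CPM) in liver 13, and Slc40a1 (129 CPM) and Rbl1 (13.5 CPM) in liver 16.

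Day 0 liver 12 was marked high for Elovl3 (745 CPM), Lcn2 (460 CPM), Mt1 (108 CPM), Ttk (0.447 CPM) and Bub1 (0.298 CPM), and low for Mug1 (3154 CPM). Day 0 liver 13 was marked low for Cyp27a1 (539 CPM) and Clec4g (32.8 CPM) and high for Phlda3 (3.11 CPM). Day 0 liver 14 was marked high for Ccna2 (4.26 CPM), Atf3 (2.43 CPM) and Il6 (0.608 CPM) and low for Slc25a4 (1.52 CPM). Day 0 liver 15 was marked high for Apoa4 (350.1 CPM), Mki67 (6.03 CPM), Uhrf1 (1.83 CPM) and Ccnb1 (0.262 CPM). Day 0 liver 16 was marked high for Cyp2d10 (580.3 CPM), Axin2 (18.8 CPM) and H19 (0.392 CPM) and low for Tagln (1.57 CPM). For Bub1, Ttk, Ccnb1, Il6 and H19 at day 0 the other 4 livers had no counts.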

How the results depend on the processing

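The count of 1915 called genes was 2069 with DESeq2, 1907 with RLE scaling, 1915 with upper-quartile scaling, 2068 with no filter, 1979 with a filter of 1 CPM, 1904 with robust dispersion, 1955 with limma voom and 1782 with only the wild-type groups. Calls higher at day 3 made up 54.0% to 61.8% of these, against 56.8%. A test against a fold change of 1.5 called 434 genes, 337 higher and 97 lower. Leaving out each library in turn gave 1582 to 1785 genes, and leaving out day 3 livers 12 and 14, chosen after seeing the data, gave 1416. The mouse number as a replicate block gave 1710 genes in the 10 wild-type libraries. For mice 12, 15 and 16, whose titles match exactly, the block gave 1277 genes and no block, added after seeing the data, 1070. After removal of group means, same-numbered livers correlated at 0.0338 (mouse 12), -0.0124 (13), -0.0219 (14), 0.0744 (15) and 0.0914 (16). Livers of different numbers correlated at -0.0914 to 0.0529, so the values for mice 15 and 16 were the highest of all. These small values do not settle whether the numbers are pairs. The main fit used no block because the labels do not state that the same animal gave both tissues.

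Genes near 0 changed sign, none of them called. Met (-0.00) was at 0.0053 with DESeq2, 0.0064 with RLE scaling, 0.0081 with only the wild-type groups, 0.1128 without day 3 livers 12 and 14, and -0.0414 to 0.0887 with single libraries left out (positive without day 0 livers 12 or 15 or day 3 liver 12). Hnf4a was at 0.0434 without day 3 livers 12 and 14, and -0.1089 to 0.0441 with single libraries left out (positive without day 0 liver 15 or day 3 liver 12). Leaving out single libraries moved Abcb11 between -0.1052 and 0.0191 (without day 0 liver 16), and Stab1 between -0.03 (without day 0 liver 13) and 0.1437. The cause of these shifts was not tested.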

Other observations

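A set of hepatocyte genes outside the lists, chosen after their values were seen, also moved. Dio1, the deiodinase that activates thyroid hormone, had 219, 184, 117, 129 and 192 CPM at day 0 and 27.5, 37.4, 35, 22.1 and 60.7 CPM at day 3, a log2 fold change of -2.23 ± 0.30 (adjusted p = 2.49e-05), with no overlap. Hsd11b1, which activates glucocorticoid, fell by 1.11 ± 0.14, and Angptl8, an inhibitor of lipoprotein lipase, fell by 2.25 ± 0.45. The groups overlapped for Angptl8, with day 0 liver 12 (38.3 CPM) inside the day 3 range of 16.6 to 51.3 CPM. Car3, a carbonic anhydrase, had 2242 to 4527 CPM and 975 to 1244 CPM (-1.41 ± 0.20).

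Apolipoprotein genes went in both directions. Apoa4, of triglyceride-rich lipoproteins, had 122, 134, 139, 350.1 and 152 CPM at day 0 and 335, 286, 692, 828 and 826 CPM at day 3 (1.73 ± 0.30, adjusted p = 0.000406), while Apoa5, which promotes triglyceride clearance, fell by 0.96 ± 0.14.

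Glycogen phosphorylase of muscle, Pygm, and the mitochondrial carrier Slc25a4 were highest in the day 3 livers with muscle transcripts, at 131, 0, 14.7, 2.36 and 0.773 CPM and 142, 8.6, 20.4, 13.4 and 8.51 CPM in the 5 day 3 livers.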
